A study of Mus musculus with 6 samples.

Results

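*Mrc2* encodes the collagen uptake receptor uPARAP, and it was described together with 9 genes of the endocytic and lysosomal route, *Lrp1*, *Lamp1*, *Ctsa*, *Ctsb*, *Ctsd*, *Ctsk*, *Ctsl*, *Ctsz* and *Lgmn*. These 10 members were taken by symbol from the 41388 genes of each sample. *Mrc2* was chosen by its values in these same samples, because the genotypes did not overlap, and the other 9 were listed for their roles. The difference of *Mrc2* is therefore a description with no test. The study compared primary chondrocytes, the cells of cartilage, from femoral heads of male mice aged 21 days, kept in culture for 2 days with no treatment. The 3 *Postn*-/- samples came from mice homozygous for the *Postn* tm1Jmol allele, a germline loss of the gene for the matrix protein periostin, and the 3 *wt* samples from mice with the intact gene. Both groups had the mixed B6/129 background of the labels, the strain B6129SF2/J in the study's methods, and the labels name no other allele and no agent. The study's methods give 3 mice of each genotype for this experiment, as many as there are samples, so the samples were taken as separate mice.

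Cartilage collagen is cleaved outside the cell by collagenases, and fragments can then be taken up and broken down in lysosomes. uPARAP, a member of the mannose receptor family, binds collagen fragments and carries them through clathrin-coated pits to endosomes and lysosomes. LRP1 is a large endocytic receptor of the LDL receptor family that clears proteases and their inhibitors from the matrix. LAMP1 is an abundant glycoprotein of the lysosomal membrane. Cathepsins B, K, L and Z are cysteine proteases of the papain family, cathepsin D is an aspartic protease and cathepsin A is a serine carboxypeptidase. Legumain, the product of *Lgmn*, cleaves after asparagine and processes other cathepsins.

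The 4 cysteine cathepsins among the members share an ancestry, so the stretch around the active-site cysteine is shown first to let their messages be told apart. Each line gives 45 coding bases from GENCODE M21 transcripts, 5′ to 3′, with the codon of the active-site cysteine in capitals. *Ctso*, a further cathepsin described below, is added.
Ctsb: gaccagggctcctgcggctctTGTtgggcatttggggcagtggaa
Ctsk: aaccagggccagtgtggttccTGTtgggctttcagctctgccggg
Ctsl: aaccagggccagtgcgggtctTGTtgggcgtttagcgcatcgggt
Ctsz: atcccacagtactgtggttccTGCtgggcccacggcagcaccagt
Ctso: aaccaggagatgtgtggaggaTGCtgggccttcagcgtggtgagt
*Ctsk* and *Ctsl* differed at 10 of these 45 bases, and *Ctsb* and *Ctsz* at 26. Over whole transcripts, none of the 50-base words of *Mrc2*, *Ctsk*, *Ctsl*, *Ctsz*, *Lgmn*, *Lrp1* or *Ctso* occurred in transcripts of another gene, a share of 0%. The words came from 1 transcript of each gene and were matched without mismatches, and 10 exon bases of *Ctsz* overlap *Nelfcd* on the opposite strand. The share was 7.11% for *Lamp1*, 15.4% for *Ctsb*, 15.8% for *Ctsa* and 36.6% for *Ctsd*. These transcripts are not the annotation that was counted, so a share is not a fraction of reads lost. In the exon coordinates deposited with the counts, no other gene overlapped *Lamp1*. Overlaps of *Ctsb*, *Ctsa* and *Ctsd* are given with those genes. Whether counting lost reads of these 4 genes or gave them to another gene was not tested.

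The counts summed to between 20587640 and 26572260 per sample. *wt* replicate 1 stood apart from the other 5 samples, at 47.7 on a first principal component that held 31.9% of the variance, and results are also given without it. The targeted gene *Postn* had 116, 105 and 119 reads in *Postn*-/-, against 263, 228 and 144 in *wt*. In edgeR's fit the log2 ratio of *Postn*-/- to *wt* was −0.91 ± 0.22 (SE, unadjusted p = 0.00362, adjusted p = 0.717), and the genotypes did not overlap. Reads of the gene were thus still counted in the samples labelled knockout. Gene counts do not show which part of the gene they came from. The paper reported genotyping by PCR, no periostin staining in knockout joints and negligible periostin in knockout serum. Chondrocyte markers fitted the label, since all 14 listed were measured and *Col2a1*, the main cartilage collagen, lay between 8271 and 18081 CPM, which are counts scaled to a common library total. All CPM given here were normalized by TMM, a scaling for library size and composition. Differences are log2 ratios of *Postn*-/- to *wt*, given with their standard error (SE). Of 14533 genes tested with edgeR's quasi-likelihood test, 2 had an adjusted p of at most 0.05, which is 0.0138% of them. At an unadjusted p of at most 0.05, 3.95% were higher and 2.35% were lower in *Postn*-/-.

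The receptor genes came first on the route. *Mrc2* (chromosome 11 of GRCm38, 105292643 to 105351139, plus strand) stood at 77.4, 85.8 and 68.1 CPM in *Postn*-/- replicates 1, 2 and 3, and at 52.3, 43.2 and 48.1 CPM in *wt* replicates 1, 2 and 3. Each *Postn*-/- sample lay above each *wt* sample. These values rest on 1430 to 2110 reads in *Postn*-/- and 955 to 1359 reads in *wt*. The means were 77.1 ± 8.84 and 47.9 ± 4.53 CPM (SD, n = 3 each), a ratio of 1.61. The log2 ratio was 0.69 ± 0.12 (SE), and it ran from 0.60 to 0.77 over 15 alternative settings of the samples it was chosen on, a range that is a description too. Across all tested genes, 7.03% were higher with no overlap of the genotypes and 6.57% were lower with none. No exon of another gene in the files overlapped an exon of *Mrc2*.

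*Lrp1* (chromosome 10, 127538161 to 127621148, minus strand) stood at 304, 489 and 366 CPM in *Postn*-/-, against 386, 293 and 310 CPM in *wt*. *Postn*-/- replicate 2 was the highest sample, while *Postn*-/- replicate 1 lay below *wt* replicates 1 and 3, so the genotypes overlapped. *Lrp1* differed by 0.23 ± 0.19 on the log2 scale (SE, unadjusted p = 0.268). Without *Postn*-/- replicate 2 the difference was 0.02, and without *Postn*-/- replicate 1 it was 0.37. *Mrc2* and *Lrp1* were both at their highest in *Postn*-/- replicate 2, and both were lowest in *wt* replicate 2.

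**Figure D1:**
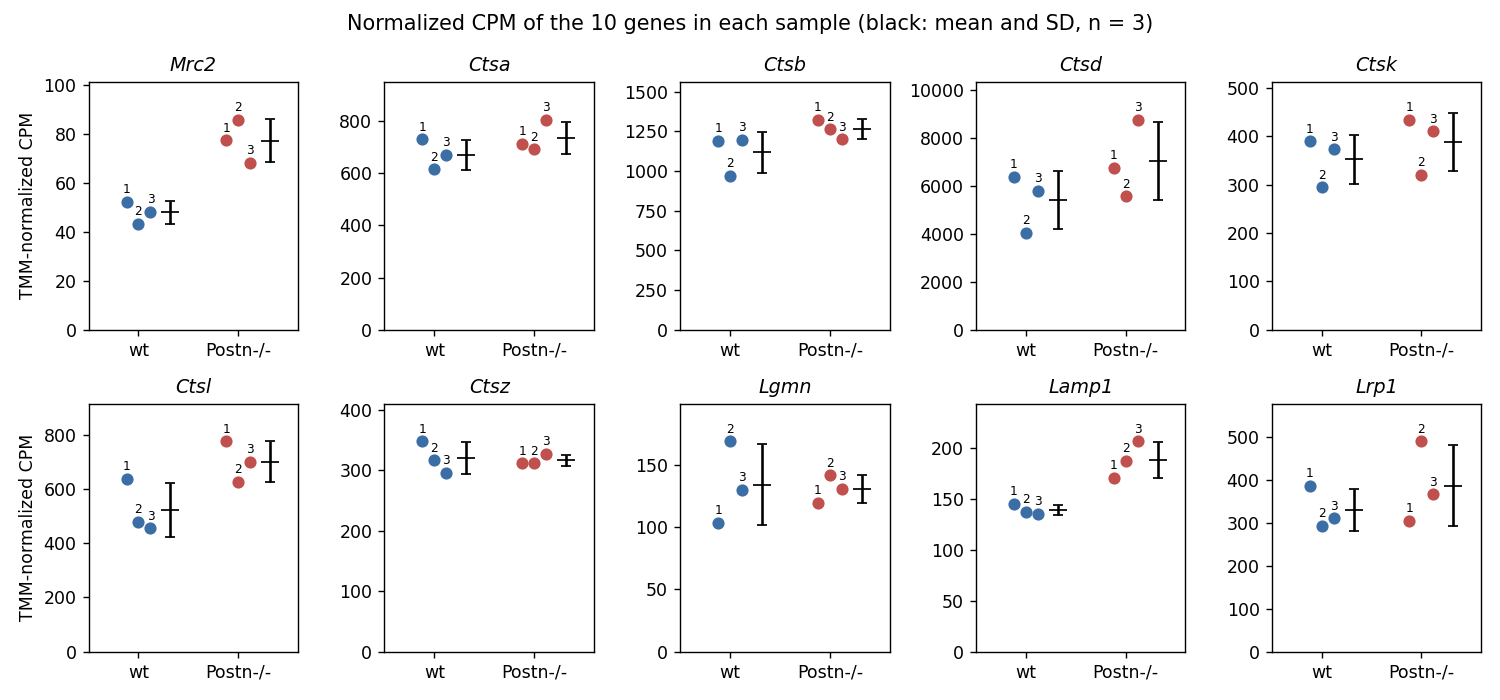
Each panel plots the normalized CPM of one gene, on an axis from 0, in the 3 *wt* samples (blue) and the 3 *Postn*-/- samples (red), with the replicate number above each point and the mean and SD in black. *Mrc2*, *Lamp1* and *Ctsb* are the genes whose 2 groups of points do not overlap, and the gap of *Ctsb* is narrow.

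*Lamp1*, the lysosomal membrane gene (chromosome 8, 13159161 to 13175338, plus strand), stood at 171, 187 and 207 CPM in *Postn*-/-, against 145, 137 and 135 CPM in *wt*. The groups did not overlap, and the *wt* samples lay close together, with an SD of 5.07 against 17.9 CPM in *Postn*-/-. For *Lamp1* the log2 difference was 0.43 ± 0.11 (SE, unadjusted p = 0.00363, adjusted p = 0.717). The unadjusted p stayed between 0.00124 and 0.0199 over the 15 alternatives, with the highest value when *Postn*-/- replicate 3 was left out, and the adjusted p stayed at 0.265 or more. It therefore stayed below 0.05 without any single sample but did not pass the adjustment over all genes.

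Among the 4 cysteine cathepsins that are members, *Ctsl* had the largest log2 difference and *Ctsz* the smallest. *Ctsl* (chromosome 13, 64359337 to 64370890, minus strand), a broadly acting endopeptidase, was at 775, 625 and 700.0 CPM in *Postn*-/-, against 637, 479 and 454 CPM in *wt*. *wt* replicate 1 lay just above *Postn*-/- replicate 2, and the other 2 *wt* samples lay below the *Postn*-/- samples. edgeR put the difference of *Ctsl* at 0.42 ± 0.16 log2 units (SE, unadjusted p = 0.0323, adjusted p = 0.717). The unadjusted p was 0.00362 without *wt* replicate 1. It was 0.109 without *Postn*-/- replicate 1 and 0.0725 without *Postn*-/- replicate 3, and 0.0934 and 0.120 without *wt* replicates 2 and 3.

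*Ctsb* (chromosome 14, 63122462 to 63145923, plus strand), which cleaves both inside chains and from their ends, stood at 1325, 1263 and 1200.2 CPM in *Postn*-/-, against 1189, 969 and 1195 CPM in *wt*. The groups did not overlap, but the lowest *Postn*-/- sample and the highest *wt* sample nearly touched, and they overlapped with DESeq2's size factors or without the filter on low counts. *Ctsb* differed by 0.18 ± 0.13 on the log2 scale (SE, unadjusted p = 0.224), and by 0.083 without *wt* replicate 2. Of its exon bases, 16.2% overlap the gene *Fdft1* on the opposite strand. The sources used here do not say whether counting used strand.

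*Ctsk* (chromosome 3, 95499256 to 95509362, plus strand), the collagen-cleaving cathepsin best known from osteoclasts, stood at 435, 321 and 411 CPM in *Postn*-/-, against 390, 294 and 373 CPM in *wt*. Replicate 2 was the lowest of each genotype and the groups overlapped. For *Ctsk* the log2 difference was 0.14 ± 0.16 (SE, unadjusted p = 0.398), and with 1 sample left out it ran from 0.029 without *wt* replicate 2 to 0.26 without *Postn*-/- replicate 2. *Ctsz* (chromosome 2, 174427493 to 174439039, minus strand), a carboxypeptidase, was at 311, 311 and 326 CPM in *Postn*-/-, against 347, 316 and 295 CPM in *wt*. Its *Postn*-/- values lay inside the *wt* range. It differed by −0.01 ± 0.11 (SE, unadjusted p = 0.897), an interval of 1 standard error from −0.12 to 0.09.

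Cathepsins of other classes were as follows. *Ctsd* (chromosome 7, 142375911 to 142388038, minus strand) stood at 6751, 5561 and 8762 CPM in *Postn*-/-, against 6382, 4044 and 5781 CPM in *wt*. *Postn*-/- replicate 2 lay below *wt* replicates 1 and 3, and the coefficient of variation was 23.0% in *Postn*-/- and 22.5% in *wt*. edgeR put the difference of *Ctsd* at 0.38 ± 0.24 log2 units (SE, unadjusted p = 0.155), and it was 0.18 without *Postn*-/- replicate 3 and 0.21 without *wt* replicate 2. *Ctsd* alone held between 58.7% and 71.0% of the normalized counts of the 7 lysosomal proteases among the members. *Ifitm10*, at 20.9 to 32.1 CPM, overlaps 6.47% of the exon bases of *Ctsd* on the same strand.

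*Ctsa* (chromosome 2, 164832873 to 164841032, plus strand), which also protects the sialidase of *Neu1* in the lysosome, was at 711, 691 and 805 CPM in *Postn*-/-, against 730, 615 and 669 CPM in *wt*. *wt* replicate 1 lay above 2 of the 3 *Postn*-/- samples. *Ctsa* differed by 0.13 ± 0.12 on the log2 scale (SE, unadjusted p = 0.314), and by 0.059 without *Postn*-/- replicate 3 and 0.074 without *wt* replicate 2. In the annotation, 10.5% of the exon bases of *Ctsa* overlap *Pltp* on the opposite strand. *Lgmn* (chromosome 12, 102394084 to 102439813, minus strand) stood at 120, 142 and 131 CPM in *Postn*-/-, against 104, 169 and 130.0 CPM in *wt*. Its *wt* samples were both the lowest and the highest of the 6. *Lgmn* differed by −0.04 ± 0.18 on the log2 scale (SE, unadjusted p = 0.835).

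Of the 9 members other than *Mrc2*, 2 reached an unadjusted p of at most 0.05, *Lamp1* and *Ctsl*, both higher in *Postn*-/-, which is 22.2% beside 3.95% of all tested genes. None of the 9 had an adjusted p of at most 0.05 with edgeR, and none did with DESeq2 or voomWithQualityWeights. *Lamp1* and *Ctsb* were higher with no overlap, which is 22.2% of the 9 beside 7.03% of all tested genes. The log2 fold change was above 0 for 7 of the 9 and its median was 0.18, beside a median of 0.0042 over all tested genes and 50.8% of them above 0. The sign of *Ctsz* turned without *wt* replicate 1 (0.051), and that of *Lgmn* without *Postn*-/- replicate 1 (0.023) or *wt* replicate 2 (0.16). A *Postn*-/- sample was the highest of the 6 for 7 of these 9 members, beside 46.7% of all tested genes. A *wt* sample was the lowest for all 9, beside 53.9%, and in 5 of them it was *wt* replicate 2.

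Leaving out *wt* replicate 1 moved the values of the members away from 0, that of *Lgmn* downward and that of *Ctsz* to the other side of 0. Without it the log2 fold change was 0.76 for *Mrc2*, 0.46 for *Lamp1*, 0.59 for *Ctsl*, 0.52 for *Ctsd*, 0.36 for *Lrp1*, 0.22 for *Ctsb* and *Ctsk*, 0.20 for *Ctsa* and −0.19 for *Lgmn*. The genotypes then did not overlap for 4 of the 9, *Ctsa* and *Ctsl* having joined *Lamp1* and *Ctsb*, beside 11.2% of all tested genes higher with no overlap among these 5 samples. The median over the 9 was 0.22. Without *Postn*-/- replicate 2 they did not overlap for 5 of the 9, beside 13%, and the median was 0.17. In the 4 other settings with 1 sample left out, 2 of the 9 did not overlap, beside 9.93% to 14.6%.

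**Figure D2:**
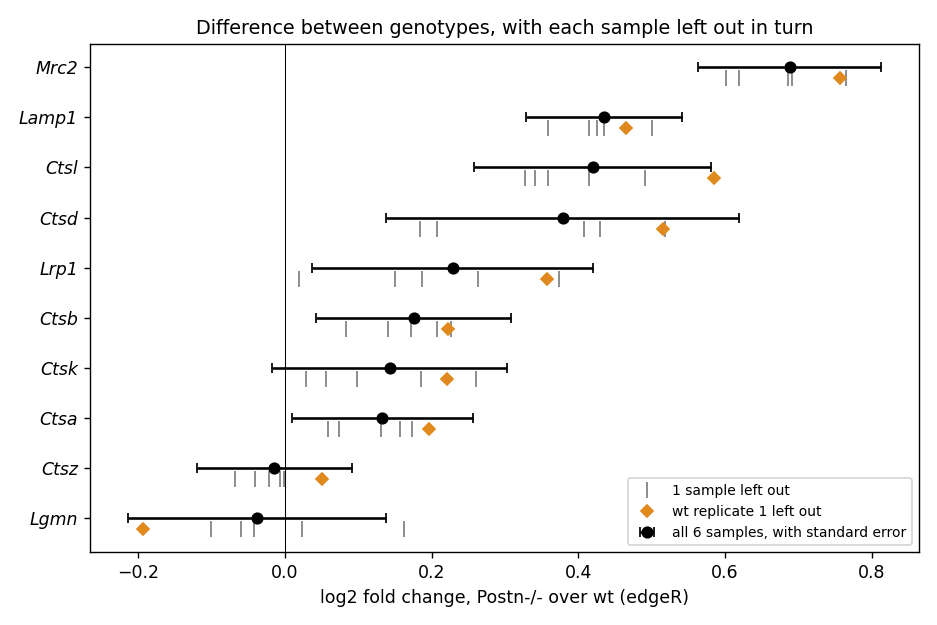
Log2 fold change of each of the 10 genes, *Postn*-/- over *wt*, with all 6 samples (black points, bars of 1 standard error), with each sample left out in turn (grey ticks) and without *wt* replicate 1 (orange diamonds). *Mrc2*, *Lamp1* and *Ctsl* lie to the right with each sample left out, and *Ctsz* and *Lgmn* lie about 0.

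Levels between genes were compared on the deposited RPKM, which are CPM without TMM divided by the exon length in kilobases. *Ctsd* was highest, with a median of 2400 RPKM over the 6 samples (range 1581 to 3545), the 11th highest of the 14533 tested genes. *Ctsl* followed at 319 (233 to 379), *Ctsb* at 257 (201 to 270), *Ctsk* at 256 (196 to 283) and *Ctsz* at 217 (207 to 236). *Ctsa* was at 147 (128 to 174), *Lamp1* at 68.1 (60.0 to 93.4), *Lgmn* at 57.0 (43.7 to 71.6), *Lrp1* at 19.4 (16.3 to 27.9) and *Mrc2* at 9.04 (6.38 to 13.0).
The ranges of *Ctsl*, *Ctsb*, *Ctsk* and *Ctsz* overlapped from each to the next, and *Ctsb* was above *Ctsk* in 3 of the 6 samples, so their order is not settled beyond the spread. *Lamp1* and *Lgmn* overlapped too. The steps from *Ctsd* to *Ctsl*, *Ctsz* to *Ctsa*, *Ctsa* to *Lamp1*, *Lgmn* to *Lrp1* and *Lrp1* to *Mrc2* were free of overlap. The proteases thus had more message per kilobase than both receptors in every sample, with 68.2% of tested genes below the median of *Mrc2* and 80.7% below that of *Lrp1*.

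**Figure D3:**
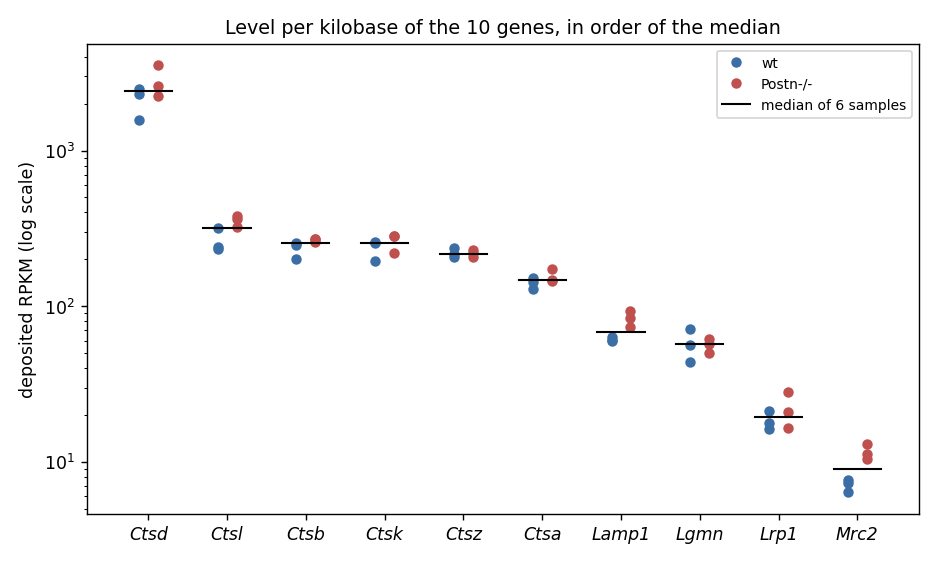
Deposited RPKM of the 10 genes on a log axis, in order of the median over 6 samples (black lines), with *wt* samples in blue and *Postn*-/- samples in red. *Ctsd* stands above all others at a median of 2400 RPKM, and *Mrc2* is lowest at 9.04 RPKM.

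The 5 tested genes whose pattern over the 6 samples was most like that of *Mrc2* were *Gpr173*, *Slc13a3*, *Scn11a*, *Nctc1* and *B3gnt9*. Likeness was the root mean square difference of gene-centred log2 CPM, and it was 0.079 for *Gpr173* and 0.11 for *B3gnt9*. *B3gnt9*, a glycosyltransferase gene, was at 13.7, 15.5 and 13.2 CPM in *Postn*-/-, against 9.73, 9.59 and 8.67 CPM in *wt*. The highest value of the other 4 in any sample was 1.87 CPM. *Gpr173*, *Scn11a* and *Nctc1* exceeded 1 CPM in *Postn*-/- samples only, so they passed the filter through that group. Because *Mrc2* was chosen for genotypes that did not overlap, genes most like it repeat that split, and this ranking is a description with no test. Among the 14532 genes ranked, *Lamp1* was 117th and *Ctsl* 219th, with differences of 0.21 and 0.23. *Ctsb* was 556th, *Lrp1* 1011th, *Ctsa* 1684th, *Ctsd* 2736th, *Ctsk* 2882nd, *Ctsz* 4025th and *Lgmn* 9238th.

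The E-box CACGTG, a 6-base palindrome bound by TFEB and related factors of lysosomal genes, was looked for in RefSeq promoter windows of GRCm38.p6, from 250 bases before to 50 after the start. It occurred in 7.15% of 32851 windows and in 5 of the 10 windows of members, which belong to 8 genes. Those were 1 window each of *Ctsa*, *Ctsd*, *Ctsl*, *Lamp1* and *Lgmn*, and *Ctsa* and *Lgmn* each had a further window without it. *Mrc2* and *Ctsb* were the members with no entry. The windows of *Lamp1* and *Ctsl*, the 2 members with an unadjusted p of at most 0.05, and of *Ctsd*, the member with the highest level, are shown 5′ to 3′ with the E-box in capitals.
Lamp1, chr8:13158911-13159210, plus strand: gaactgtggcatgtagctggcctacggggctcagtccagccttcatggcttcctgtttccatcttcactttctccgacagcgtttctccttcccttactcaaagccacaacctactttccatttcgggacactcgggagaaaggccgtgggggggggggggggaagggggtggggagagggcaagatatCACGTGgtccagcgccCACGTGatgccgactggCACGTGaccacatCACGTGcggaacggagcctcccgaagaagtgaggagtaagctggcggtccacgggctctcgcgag
Ctsl, chr13:64370471-64370770, minus strand: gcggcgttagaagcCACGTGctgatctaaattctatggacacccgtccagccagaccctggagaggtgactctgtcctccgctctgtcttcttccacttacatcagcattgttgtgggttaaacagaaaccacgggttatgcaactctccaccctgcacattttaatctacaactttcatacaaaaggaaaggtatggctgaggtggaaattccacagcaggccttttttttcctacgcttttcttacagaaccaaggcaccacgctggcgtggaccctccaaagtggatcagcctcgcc
Ctsd, chr7:142387778-142388077, minus strand: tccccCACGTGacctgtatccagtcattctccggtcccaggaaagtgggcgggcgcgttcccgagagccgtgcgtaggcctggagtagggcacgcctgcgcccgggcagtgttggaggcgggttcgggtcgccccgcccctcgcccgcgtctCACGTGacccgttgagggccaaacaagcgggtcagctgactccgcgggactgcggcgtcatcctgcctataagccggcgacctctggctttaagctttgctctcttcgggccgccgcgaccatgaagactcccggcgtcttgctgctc
*Lamp1* held 4 copies, with first bases 61, 45, 28 and 15 before the start, *Ctsl* 1 copy 236 before it, and *Ctsd* 2 copies 245 and 98 before it. The RefSeq start of *Lamp1* is the first base of the gene in the deposited files, while those of *Ctsl* and *Ctsd* lie 370 and 211 bases inside the outer 5′ end that the files give. The longer form TCACGTGA, present in 0.974% of windows, occurred in a window of *Ctsa* and that of *Ctsd*. These matches describe letters in a window and not binding. Of the factor genes, *Tfeb* was between 4.31 and 6.19 CPM, *Tfe3* between 24 and 33.8 and *Mitf* between 8.82 and 20.5 over the 6 samples, and 0 of the 3 passed an unadjusted p of 0.05 (adjusted p 0.717 to 0.964).

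Further genes of the route were counted in 11 lists. Of 122 tested genes, 13 had an unadjusted p of at most 0.05 and were higher in *Postn*-/-, which is 10.7% beside 3.95% of all tested genes, and 0 were lower beside 2.35%. None had an adjusted p of at most 0.05. The count was 6 without *Postn*-/- replicate 3, where 2.12% of all tested genes were higher at that p, and 21 without *Postn*-/- replicate 2, where 3.85% were. It was 31 with voomWithQualityWeights and surrogate variables, where 7.2% were. The log2 fold change was above 0 for 77.0% of the 122, beside 50.8% of all tested genes.

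Among the other cathepsins, 1 of 6 tested genes passed, beside 3.95% of all tested genes higher at that p. This was *Ctso*, another papain-family protease. It was at 18.5, 11.2 and 15.2 CPM in *Postn*-/-, against 8.73, 7.96 and 10.1 CPM in *wt*, with each *Postn*-/- sample above each *wt* sample. For *Ctso* the log2 difference was 0.74 ± 0.21 (SE, unadjusted p = 0.00774, adjusted p = 0.717). *Ctsf* lay between 38.0 and 66.9 CPM over the 6 samples, *Ctsh* between 38.2 and 75.5 and *Ctsc* between 3.38 and 10.2. *Ctss* and *Ctsw*, the cathepsins known from immune cells, lay between 0.529 and 3.58 and between 1.27 and 7.36 CPM.

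Of the cystatins, which block cysteine cathepsins, 3 were tested and 0 passed. *Cst3*, encoding the secreted inhibitor cystatin C, came closest, at 1151, 1207 and 1794 CPM in *Postn*-/- and 1139, 906 and 1001 CPM in *wt*. Its groups did not overlap, and it differed by 0.45 ± 0.20 on the log2 scale (SE, unadjusted p = 0.0529). Without *Postn*-/- replicate 3, its highest sample, the difference of *Cst3* was 0.21 (unadjusted p = 0.226), and its unadjusted p was at most 0.05 in 9 of the 15 alternatives, with a lowest value of 0.0189 without the filter on low counts. *Cstb*, the intracellular inhibitor, lay between 176 and 213 CPM, and *Cst6* between 20.9 and 87.6.
Of the relatives of *Mrc2*, *Pla2r1* lay between 5.70 and 8.95 CPM and *Ly75* between 2.64 and 4.19, and 0 of these 2 passed. The genotypes did not overlap for *Ly75*, at 3.57 to 4.19 CPM in *Postn*-/- against 2.64 to 3.31 in *wt* (log2 ratio 0.36). Of all tested genes, 7.03% were likewise higher with no overlap. *Mrc1*, the macrophage mannose receptor, was below the filter, at 0.633 to 1.37 CPM.
uPARAP is known to associate with the urokinase receptor, and 0 of 6 tested genes of the urokinase system passed. The receptor gene *Plaur* lay between 68.8 and 123 CPM and urokinase itself, *Plau*, between 1.19 and 2.77. *Plat* lay between 2.94 and 23.0 and *Serpinb2* between 0.240 and 1.67 CPM. *Serpine2*, a protease inhibitor and ligand of LRP1, lay between 844 and 1451. Of the 14 genes of the LDL receptor family and its chaperone, 0 passed and the median log2 fold change was 0.063.

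**Figure D4:**
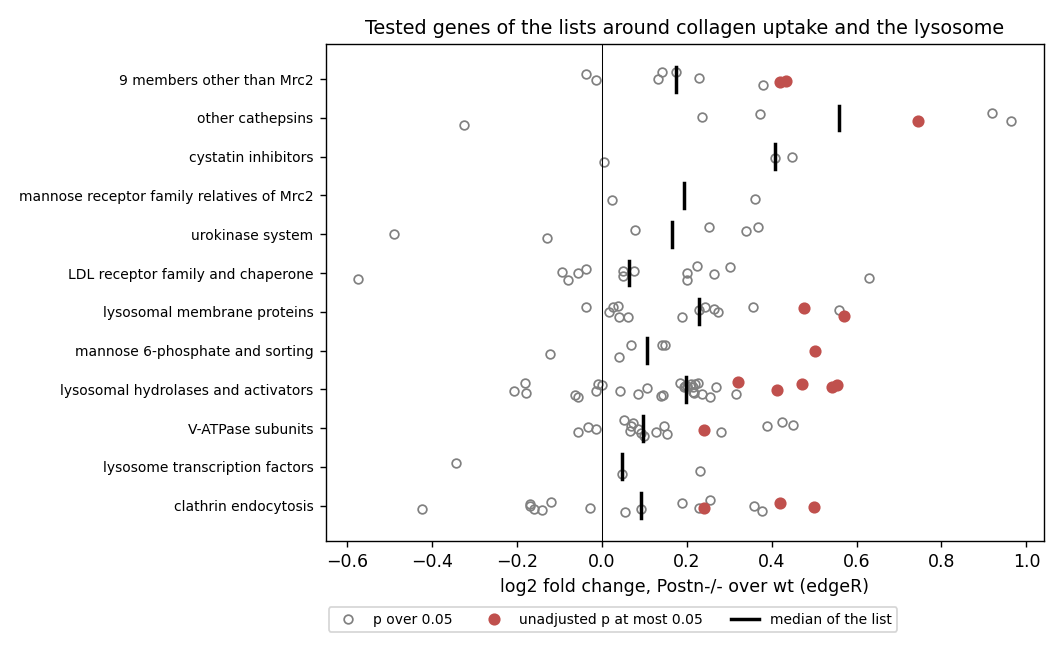
Log2 fold change, *Postn*-/- over *wt*, of each tested gene of the 11 lists and of the 9 members other than *Mrc2*, as filled points where the unadjusted p was at most 0.05 and as open points otherwise, with list medians as black bars. Each of the 15 filled points lies to the right of 0.

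The passing genes of each list below stand beside 3.95% of all tested genes higher at that p. Lysosomal membrane genes had 2 of 15 passing. *Scarb2*, the carrier of glucocerebrosidase to lysosomes, was at 128, 127 and 151 CPM in *Postn*-/-, against 76.8, 94.8 and 102 CPM in *wt*, and differed by 0.57 ± 0.14 (SE, unadjusted p = 0.00301). *Mcoln1*, a lysosomal calcium channel gene, had a log2 fold change of 0.48 (unadjusted p = 0.0382). The median of the 15 was 0.23.
Of 6 genes of mannose 6-phosphate tagging and sorting, *Nagpa*, which uncovers the tag, passed, with a log2 fold change of 0.50 (unadjusted p = 0.00465). The receptors *M6pr* and *Igf2r* of that tag did not.
Of 32 lysosomal hydrolases and activators, 5 passed and the median was 0.20. *Naglu*, which degrades heparan sulfate, had a log2 fold change of 0.54. Those of *Arsa* and *Gla*, which degrade glycolipids, were 0.32 and 0.47, and that of *Neu1*, named after its value was seen, was 0.55.
Of 18 V-ATPase subunits, which acidify the lysosome, *Atp6v0d1* passed with 0.24. Of 17 genes of clathrin endocytosis, *Clta*, a clathrin light chain, passed with 0.42 (unadjusted p = 0.00373), *Ap2a1*, an adaptor subunit, with 0.50 (unadjusted p = 0.00747) and *Dnm2*, the dynamin of vesicle scission, with 0.24. Of the 17, 5 were higher with no overlap of the genotypes, beside 7.03% of all tested genes, and 3 were lower with none, beside 6.57%. Among those without overlap that did not pass were the adaptor genes *Ap2b1*, *Ap2m1* and *Ap2a2*, the endocytic gene *Epn1* and the endosome gene *Eea1*, of which *Ap2a2* and *Epn1* had log2 ratios above 0 (0.19 and 0.36) and the other 3 below 0.
*Ctso*, *Scarb2*, *Nagpa*, *Naglu*, *Clta* and *Ap2a1* reached this threshold in all 15 alternatives. The other 7 reached it in 6 (*Atp6v0d1*) to 14 of them.

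Markers of other cells were measured beside these genes, since in bulk RNA fewer cells of a type and less RNA per cell cannot be told apart. Of 14 macrophage markers, 7 were below the filter, and their summed level was 38.0 to 74.8 CPM in *Postn*-/- and 38.8 to 48.7 in *wt*. Of the 7 tested, 0 passed, but the log2 ratio was above 0 for 6 of them, beside 50.8% of all tested genes, with a median of 0.42. *Laptm5*, the highest of them at 10.01 to 28.9 CPM, was the one below 0, at −0.32, and *Lyz2*, the lysozyme gene of macrophages, lay between 5.81 and 14.2 CPM in 5 samples and at 27.5 in *Postn*-/- replicate 1. *Adgre1*, *Tyrobp* and *Aif1* were at most 2.41, 0.844 and 0.244. No marker was at 0 in all 6 samples. Of 10 osteoclast markers, 5 were below the filter, among them *Calcr*, *Dcstamp* and *Mmp9*, and the sum, mostly *Ckb*, was 288 to 344 CPM in *Postn*-/- and 166 to 482 in *wt*.
The summed osteoblast markers, led by *Alpl*, were at 1016 to 1912 CPM in *Postn*-/-, against 792 to 3457 in *wt*. The fibroblast and perichondrial markers, led by *Col1a2*, were at 1848 to 4085 and 2421 to 5366 CPM. Of 12 tested, 1 passed, *Cthrc1*, which was lower in *Postn*-/-, beside 2.35% of all tested genes lower at that p. *Cthrc1* was at 53.4 to 85.9 against 98.1 to 133 CPM, with a log2 difference of −0.78 ± 0.19 (SE, unadjusted p = 0.00406, adjusted p = 0.717). The endothelial markers, led by *Vwf*, were at 10.97 to 15.5 and 8.23 to 13.5 CPM. The log2 ratio was above 0 for 5 of 5 tested endothelial markers, beside 50.8% of all tested genes, with a median of 0.27, and 0 of the 5 passed.
Chondrocyte markers summed to 37158 to 49629 CPM in *Postn*-/- and 31354 to 45371 in *wt*. Of the 14, 3 were higher at an unadjusted p of at most 0.05, *Col2a1*, *Col9a3* and *Col11a2*, beside 3.95% of all tested genes. The ratio was above 0 for 9 of the 14, beside 50.8% of all tested genes. *Cnmd*, encoding chondromodulin, did not overlap in the other direction, at 3542 to 4702 CPM in *Postn*-/- against 4968 to 5781 in *wt* (log2 ratio −0.29, unadjusted p = 0.132). G2/M markers of dividing cells, led by *Top2a*, summed to 297 to 721 CPM in *Postn*-/- and 597 to 1043 in *wt*. Their log2 ratio was below 0 for 15 of 15, while 50.8% of all tested genes were above 0. With an unadjusted p of at most 0.05, 1 was lower, *Ccnb1*, beside 2.35% of all tested genes. The part of these markers in the differences of *Mrc2*, *Lamp1*, *Ctsl* and the listed genes was not tested.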

How the data were processed

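RNA-seq was analysed in 3 *Postn*-/- and 3 *wt* samples. The authors' reads, single ends of 50 bases, were aligned by STAR 2.0.4b against Ensembl release 76, and featureCounts 1.4.5 counted those with a unique place in 1 gene. Per the file headers, each file gives a raw count, a CPM (the count relative to all counts of the sample) and an RPKM (CPM per kilobase of exon). The processing notes name mm9, while the coordinates in the deposited files are of GRCm38. Counts entered the tests, deposited RPKM gave levels between genes, and deposited CPM was checked against the counts. Of 41388 identifiers, 40340 (97.5%) matched GENCODE M21 symbols. Depth was 20587640 to 26572260 counts, so 3 counts corresponded to 0.113 to 0.146 CPM, which covers counting error only. Each sample was used as 1 replicate, since the study's methods give 3 mice of each genotype. The lowest chi-square per degree of freedom between samples was 36.5, which compares them with counting error only and does not decide that choice.

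Genes had to exceed 1 CPM in 2 or more samples, and 355 rRNA genes were dropped. In R 4.3.3, edgeR 4.0.16 (TMM, quasi-likelihood test, no covariates) compared the genotypes, with Benjamini-Hochberg adjustment over all 14533 genes. Each standard error was the size of the log2 ratio divided by the root of F. Likeness to *Mrc2* used log2 CPM with a prior count of 2. The fit was tested on simulated data. Alternatives were other normalizations and filters, DESeq2 1.42.0, voomWithQualityWeights (limma 3.58.1) without and with surrogate variables (sva 3.50.0), a robust fit, a replicate block and leaving out each sample.

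The members and lists were chosen with earlier results of these data known. Genes named were the members, tested genes of the lists of cathepsins, cystatins, *Mrc2* relatives and the urokinase system, up to 4 genes with the lowest p of each other list, the 5 genes most like *Mrc2*, the highest gene of each marker list and *Postn*. Exceptions, chosen after their values were seen, were *Neu1*, the adaptor and endosome genes without overlap, and the further marker genes. *M6pr*, not among the 4 genes with the lowest p of its list, and *Mrc1*, which was not tested, were also named outside this rule. Some genes that this rule names are not reported here by name and enter only the counts and medians of their lists.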

Additional observations from a re-analysis of the deposited data

How the results depend on the processing

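The differences of the members other than *Ctsz* and *Lgmn* stayed above 0 in all 15 alternatives, which for *Mrc2* says nothing of stability, since it was chosen on these values. The log2 fold change of *Ctsz* changed sign to 0.0046 with upper quartile normalization, 0.00045 with over 1 CPM in all 6 samples, 0.051 with voomWithQualityWeights, 0.00020 with surrogate variables added and 0.051 without *wt* replicate 1, and ran from −0.068 to 0.051 with 1 sample left out. That of *Lgmn* was 0.023 without *Postn*-/- replicate 1 and 0.16 without *wt* replicate 2, in a range from −0.19 to 0.16. The number of the 9 other members without overlap, 2, was 1 with DESeq2's size factors, without the filter and with DESeq2's Wald test. It was 3 with upper quartile normalization and with over 1 CPM in all 6 samples, *Ctsl* added. The share of all tested genes without overlap was not counted in these settings, so these numbers describe the members only. With 1 sample left out the number was 2 to 5, beside 9.93% to 14.6% of all tested genes higher with no overlap. The other members at an unadjusted p of at most 0.05, 2, were 4 with surrogate variables, *Ctsd* and *Lrp1* added, where 7.2% of all tested genes were higher at that p. They were 1 to 2 with 1 sample left out, where 2.12% to 5.2% of all tested genes were higher. Over all genes, the 2 adjusted calls were 1 with upper quartile normalization, 9 without the filter, 0 with over 1 CPM in all 6 samples (806 at an unadjusted p of at most 0.05), 10 with DESeq2's Wald test, 1 with voomWithQualityWeights, and 1 to 2 with 1 sample left out. The 916 genes at an unadjusted p of at most 0.05 were 1797 without the filter, 1882 with surrogate variables and 429 to 1258 with 1 sample left out. The causes were not tested. The replicate numbers did not pair the samples by the check used, since the correlations of deviations for replicates 1, 2 and 3 were 0.082, 0.16 and 0.14, although each of the 6 samples correlated best with its own number, a hint from the data and not the design. With the replicate block 1 gene was called and *Mrc2* was at 0.69. Of the 9 other members, 2 were higher at an unadjusted p of at most 0.05, beside 722 of all 14533 tested genes. With a prior count of 0.5, 4 of the 5 genes most like *Mrc2* were the same, and with normalized CPM per kilobase 8 of 10 members kept their place in the order of levels. With 3 samples a group, the difference of *Ctsd* had a standard error of 0.24, at 89387 to 183865 reads per sample. What limited it was not tested.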
